A study of Mus musculus with 4 samples.

Results

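The 9 genes described here encode proteins that cap, cut or bundle actin filaments: the 3 adducins (Add1, Add2 and Add3) and 6 genes of the gelsolin and villin family (Scin, Gsn, Capg, Flii, Svil and Avil). They were taken by symbol from a table of 52636 Ensembl mouse genes, and were chosen by family, with their fold changes in counts between R882H and EV already known, so those values are given as a description; where the calls of a fit across all genes are stated for them, they support nothing. The RNA came from mouse Hoxb8 cells, a line named for the homeobox gene Hoxb8, with which myeloid progenitors are commonly immortalised. The groups were R882H, cells that expressed DNMT3AR882H, a DNA methyltransferase with a substitution that recurs in acute myeloid leukaemia (n = 2 libraries), and EV, cells with empty vector (n = 2 libraries), both labelled as the cell line Hoxb8. The labels leave unsaid the vector's promoter, the number of clones, and the age and sex of the source animals. They also do not say whether replicates were separate cultures, so errors and p-values here reflect the spread of these libraries alone, which may be technical.

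Adducins sit at the fast-growing ends of short actin filaments, where they cap the filament and bring spectrin to it, building the membrane skeleton under the plasma membrane. The alpha subunit (Add1) pairs with either the beta (Add2) or the gamma subunit (Add3), and beta adducin is best known from red cells and brain. Gelsolin family proteins are made of repeats of a shared domain and, in several members, respond to calcium and phosphoinositides: gelsolin (Gsn) and scinderin (Scin, also called adseverin) cut and cap filaments, and the macrophage capping protein (Capg) caps without cutting. Flightless I (Flii) joins gelsolin repeats to leucine-rich repeats, supervillin (Svil) links filaments to membranes and myosin II, and advillin (Avil) is known from sensory neurons. In blood cells gelsolin is abundant in platelets, and scinderin is known for its part in megakaryocyte maturation.

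The libraries were made with a 3′ tag protocol (QuantSeq), so a count stands for a transcript end, and CPM (counts per library size after TMM scaling) compare genes without a length correction. Total counts were 5921985 and 5847609 in the R882H libraries and 5470330 and 5605092 in the EV libraries, and a count of 0 in a library allows up to 3 counts, or 0.502 to 0.550 CPM on the same scale. The 11 progenitor markers, all detected, summed to 4410 to 4418 CPM in R882H and 2715 to 2855 CPM in EV, and 5 were called higher and 3 lower by edgeR. Mpo had 1242 ± 40.5 CPM in R882H and 32.7 ± 3.19 CPM in EV, Cd48, Kit, Flt3 and Myb were also called higher, Cebpa, Csf2rb and Hoxb8 were called lower, and Ptprc, Cd34 and Spi1 were not called. Hoxb8 itself had 15 and 4 counts in R882H against 25 and 44 in EV. These counts need not give its total level, because a transcript from an immortalising vector may lack the gene's own 3′ end. Whether the cells carried such a vector is not stated in the labels. The Y-linked gene Ddx3y had 65 and 41 counts in R882H and 0 and 2 in EV, Eif2s3y had 26 and 29 in R882H and 1 and 0 in EV, while Xist, whose exons overlap those of Tsix, had 1880 and 1509 in R882H and 1463 and 1438 in EV. The Y-linked genes Uty (12 and 10 counts in R882H, 0 and 0 in EV) and Kdm5d (7 and 7 in R882H, 1 and 2 in EV) had too few counts to be tested. Whether the groups' cells share an origin was not tested. For the Y-linked genes, the progenitor markers and the members alike, the variant and a difference in cell origin cannot be told apart. On the log2 scale the mouse gene Dnmt3a differed by −0.19 (adjusted p = 0.334 in edgeR), which does not check the labels, since a vector's transcript may lack the gene's own 3′ end. Summed CPM of 8 mitochondrial mRNAs, a part of those the mitochondrion encodes, ran between 33375 and 40635 in R882H and between 40613 and 41303 in EV. Of the 8, mt-Nd2 was called lower (log2 fold change −0.68), mt-Co1 was called higher (0.45) and 6 were not called.

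Start regions of Add2, Scin and Gsn, among the members that differed most, are shown first, with each CpG in capitals, because DNMT3A methylates CpG. Methylation itself was not measured in these libraries. They are RefSeq windows on GRCm38.p6, the assembly of mm10, running from 250 bases before to 50 after an annotated start, 5′ to 3′ on the gene's own strand. Add2 is shown because its transcript was nearly lost in R882H, Scin because it was nearly absent in EV, and starts 1 and 3 of the 3 Gsn starts because Gsn was the most abundant of the members higher in R882H.
Add2, chr6:86028431-86028730, plus strand: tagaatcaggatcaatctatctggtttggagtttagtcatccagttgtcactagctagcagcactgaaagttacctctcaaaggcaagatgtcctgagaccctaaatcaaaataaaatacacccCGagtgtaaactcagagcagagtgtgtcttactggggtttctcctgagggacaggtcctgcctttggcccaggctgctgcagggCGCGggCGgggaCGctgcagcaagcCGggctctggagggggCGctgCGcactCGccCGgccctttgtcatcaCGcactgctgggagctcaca
Scin, chr12:40134179-40134478, minus strand: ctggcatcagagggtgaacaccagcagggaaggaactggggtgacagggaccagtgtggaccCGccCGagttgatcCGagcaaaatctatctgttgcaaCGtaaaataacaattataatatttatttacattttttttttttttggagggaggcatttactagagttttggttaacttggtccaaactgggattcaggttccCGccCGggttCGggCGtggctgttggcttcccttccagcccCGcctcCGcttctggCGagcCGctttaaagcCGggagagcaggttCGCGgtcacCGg
Gsn start 1, chr2:35256109-35256408, plus strand: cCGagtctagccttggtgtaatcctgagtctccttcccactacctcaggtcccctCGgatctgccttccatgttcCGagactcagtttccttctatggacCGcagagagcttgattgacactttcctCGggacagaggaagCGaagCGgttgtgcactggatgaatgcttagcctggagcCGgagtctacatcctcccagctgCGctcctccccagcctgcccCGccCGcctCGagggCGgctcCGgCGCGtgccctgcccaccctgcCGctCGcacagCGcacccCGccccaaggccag
Gsn start 3, chr2:35282130-35282429, plus strand: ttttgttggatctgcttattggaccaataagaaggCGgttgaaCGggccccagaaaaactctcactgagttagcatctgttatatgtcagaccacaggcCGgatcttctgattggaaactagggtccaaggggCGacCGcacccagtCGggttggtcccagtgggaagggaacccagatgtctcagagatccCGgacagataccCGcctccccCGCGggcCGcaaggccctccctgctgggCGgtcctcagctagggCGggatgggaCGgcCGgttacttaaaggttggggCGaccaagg
The Add2 window holds 11 CpG and the Scin window 16, and the Gsn windows shown hold 20 and 16, against a median of 7 over 32851 windows of the same length. The remaining Gsn start, not printed, holds 2.

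Adducin expression differed through the beta subunit. Add2 (ENSMUSG00000030000, mm10 chromosome 6, 86028681 to 86124409) had 1 and 0 counts in the R882H libraries against 381 and 422 counts in the EV libraries. On the CPM scale its level was 0.0837 ± 0.118 in R882H and 72.2 ± 3.26 in EV (mean ± SD, n = 2 each). Both R882H libraries lay below 3 counts, and both EV libraries were far above them. The normalised ratio of EV over R882H was 843, with an exact 95% interval of 151 to 33341. As with all intervals here, that interval covers counting error only. The fitted log2 fold change was −9.39 and rests on that single count: it was −11.66 without R882H replicate 1 and −8.56 without R882H replicate 2. In bulk RNA a lower share of cells that express a gene and less RNA per cell cannot be told apart. Exons of Add2 overlap those of the antisense gene Gm44089 over 356 bases, and Gm44089 had 0 and 0 counts in R882H and 6 and 7 in EV.

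The alpha and gamma subunits were near level. Add1 (ENSMUSG00000029106, chromosome 5, 34573664 to 34632308) had 83.0 and 78.3 CPM in R882H and 72.1 and 68.1 CPM in EV. Its log2 fold change was 0.20 ± 0.13 (standard error), and the ratio of R882H over EV was 1.15 with an interval of 1.05 to 1.27. Add3 (ENSMUSG00000025026, chromosome 19, 53140443 to 53247399) had 41.8 and 35.1 CPM in R882H and 29.3 and 31.8 CPM in EV, with a log2 fold change of 0.33 ± 0.16. Its ratio was 1.26, interval 1.09 to 1.46. For both subunits every R882H library lay above every EV library, by a margin that did not reach the threshold used across all genes. In 69.1% of all tested genes the groups did not overlap, in either direction. Add1 and Add3 together came to 125 and 113 CPM in R882H and 101 and 99.9 CPM in EV.

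Beta adducin held 0.134% (exact interval 0.00339 to 0.744) and 0% (up to 0.569) of adducin counts in the R882H libraries, and 40.8% (37.6 to 44.0) and 42.7% (39.6 to 45.9) in the EV libraries. Alpha adducin held 67.7% ± 1.87 in R882H and 40.6% ± 2.13 in EV (SD, n = 2 each), and in EV the alpha and beta transcripts were about equal, with 0.969 and 1.09 counts of Add2 per count of Add1. Gamma adducin made up the rest, 32.2% ± 1.77 in R882H and 17.7% ± 0.769 in EV. Counts of Add3 per count of Add1 were 0.504 and 0.448 in R882H and 0.407 and 0.466 in EV, ranges that overlap. Beta and gamma together, the possible partners of alpha, came to 0.506 and 0.448 counts per count of Add1 in R882H and 1.38 and 1.56 in EV. Summed over the 3 genes, the adducins reached 119 ± 8.20 CPM in R882H and 173 ± 2.20 CPM in EV (n = 2 each).

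**Figure D1:**
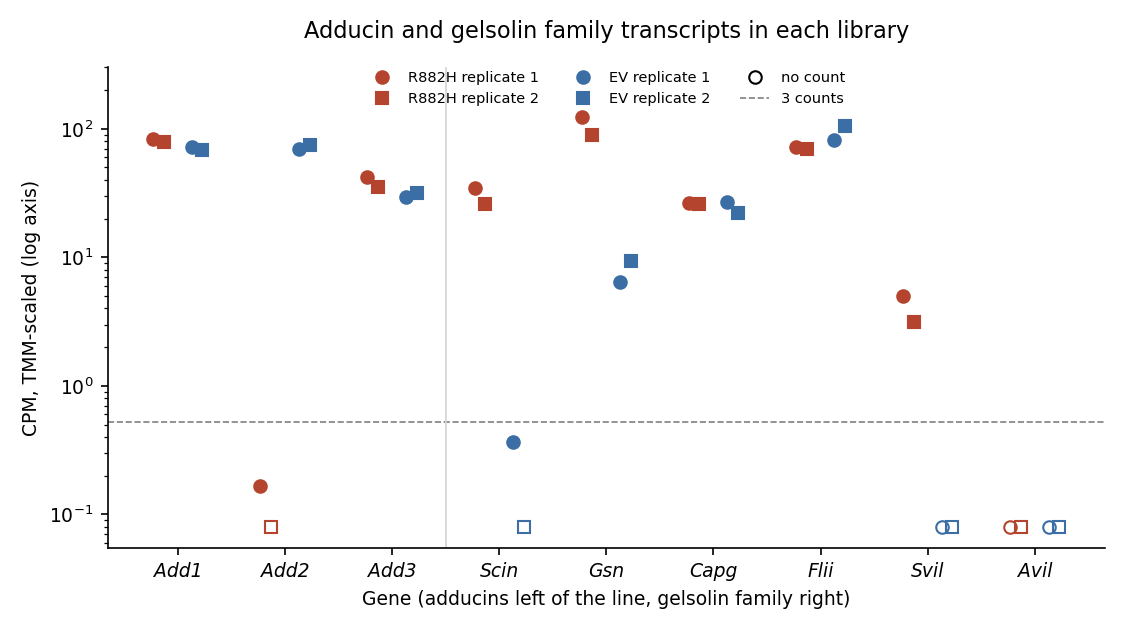
Level of each of the 9 genes in each library, in TMM-scaled CPM on a log axis; open symbols at the bottom stand for libraries with no count, and the dashed line marks 3 counts. Add2 sits at 69.9 and 74.5 CPM in EV and below the line in R882H, Scin, Gsn and Svil lie higher in R882H, and Avil has no count in any library.

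In the gelsolin family, Gsn, Scin and Svil were higher in R882H, Flii was lower and Capg near level. Gsn (ENSMUSG00000026879, chromosome 2, 35256380 to 35307892) had 741 and 511 counts in R882H and 35 and 53 in EV, or 107 ± 24.2 CPM in R882H and 7.89 ± 2.08 CPM in EV. All 4 libraries held at least 35 counts and the groups lay far apart. The log2 fold change was 3.75 ± 0.19, and the ratio was 13.6, interval 10.9 to 17.0. Leaving out any library moved the log2 value only between 3.51 and 4.05. The secreted and the cytoplasmic form of gelsolin come from this gene by different starts, and 3′ tags do not separate them.

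Scin (ENSMUSG00000002565, chromosome 12, 40059769 to 40134228) had 206 and 147 counts in R882H against 2 and 0 in EV. Its level was 30.1 ± 6.13 CPM in R882H and 0.183 ± 0.259 CPM in EV, where both libraries lay below 3 counts. The ratio of R882H over EV was 168 with an interval of 46.2 to 1394. The fitted log2 fold change, 7.22, depends on the 2 EV counts: it was 10.45 without EV replicate 1 and 6.28 without EV replicate 2. Per count of Gsn there were 0.278 and 0.288 counts of Scin in the R882H libraries, nearly the same mix in both.

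Svil (ENSMUSG00000024236, chromosome 18, 4920540 to 5119299) was detected at a low level and in R882H alone, with 30 and 18 counts against 0 and 0 in EV. That is 5.02 and 3.16 CPM in R882H, at least 15.2-fold higher than the limit set by 3 counts over the EV group. Supervillin is encoded by a long gene with 15 annotated transcripts, whose ends fall into 9 clusters more than 100 bases apart, and how its counts divide among them cannot be read from gene totals.

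The capping protein gene Capg (ENSMUSG00000056737, chromosome 6, 72544391 to 72562983) had 26.6 and 26.2 CPM in R882H and 26.8 and 22.2 CPM in EV, with overlapping groups. Its log2 fold change was 0.11 ± 0.17 and its ratio 1.08, interval 0.913 to 1.27, and the sign turned without EV replicate 2 (−0.03). Among the members with counts it was alone in having groups that overlap, while 69.1% of all tested genes had groups that did not.

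Flii (ENSMUSG00000002812, chromosome 11, 60714123 to 60727263) was the main gelsolin family transcript of EV cells and was modestly lower in R882H. It had 71.8 and 69.0 CPM in R882H and 82.2 and 105.9 CPM in EV, with a log2 fold change of −0.42 ± 0.14. Its ratio was 0.747, with 0.681 and 0.819 as interval bounds. The size depended on EV replicate 2, without which the log2 value was −0.23. The call across all genes ended on leaving out EV replicate 2, R882H replicate 1 or R882H replicate 2, and in DESeq2. The 3′ end of Flii overlaps that of the opposite-strand gene Llgl1, a cell polarity regulator, over 64 bases. Llgl1 moved the same way, with 84.0 and 90.9 CPM in R882H and 130 and 167 CPM in EV (log2 fold change −0.76 ± 0.14). Whether counting used strand is unstated, so reads of both genes within the shared bases cannot be told apart.

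Avil (ENSMUSG00000025432, chromosome 10, 127000709 to 127020994) had no count in any library and was not tested. Its exons share 165 bases with those of the opposite-strand gene Tsfm, which had 194 and 209 counts in R882H and 212 and 209 in EV. The other villin-type genes were also low: Vill had no count, and Vil1 had 28 and 28 counts in R882H and 9 and 23 in EV, with a log2 fold change of 0.74 ± 0.40 that was not called (edgeR adjusted p = 0.146). Without EV replicate 2 Vil1 was called (log2 fold change 1.52, adjusted p = 0.0359). Exons of Vil1 overlap those of Usp37.

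The leading transcript of the gelsolin family was Gsn in R882H and Flii in EV. Flii held 29.8% ± 3.43 of the family's counts in R882H and 74.0% ± 4.26 in EV (SD, n = 2 each), and Gsn held 44.7% ± 3.81 in R882H and 6.18% ± 0.889 in EV. Scin held 12.6% ± 0.774 in R882H and 0.158% ± 0.224 in EV, and Svil 1.70% ± 0.310 in R882H and none in EV. Capg held 11.2% ± 1.47 in R882H and 19.7% ± 4.92 in EV, at a nearly level CPM. The summed level of the family was 238 ± 34.0 CPM in R882H and 127 ± 15.4 CPM in EV (n = 2 each). Gsn, Scin and Svil together accounted for 163 and 119 CPM in R882H and for 6.79 and 9.36 CPM in EV, whereas Capg and Flii together came to 98.4 and 95.1 CPM in R882H and 109 and 128 CPM in EV.

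**Figure D2:**
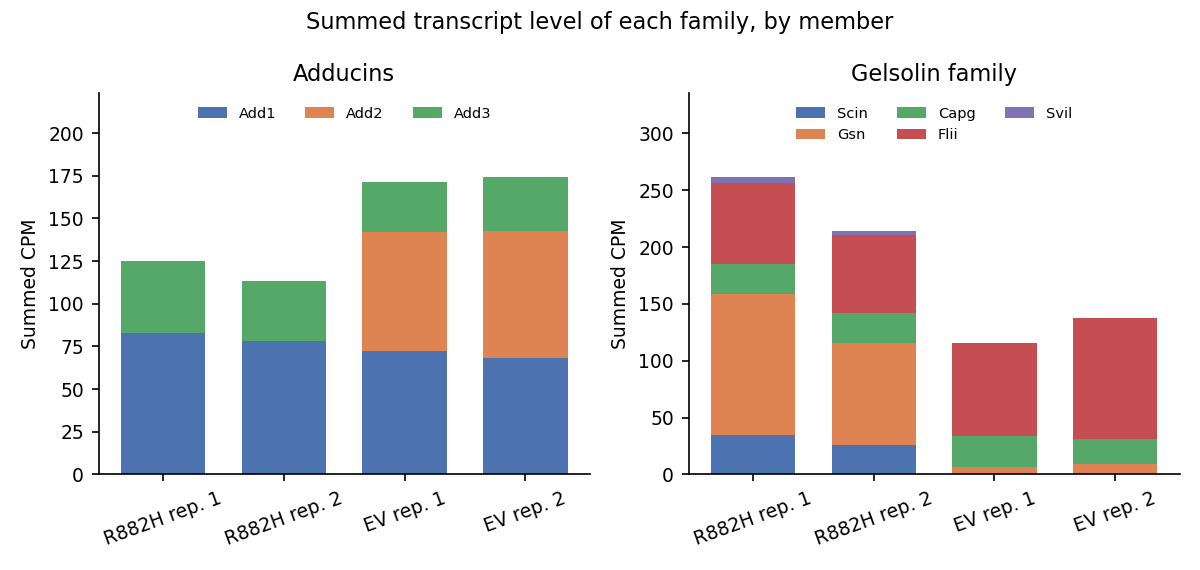
Summed CPM of the adducins (left) and of the gelsolin family (right) in each library, with each member as a coloured segment. The Add2 segment is visible only in EV, and the R882H bars of the gelsolin family, 262 and 214 CPM, have Gsn as their largest segment, with added Scin and Svil, against 116 and 138 CPM of mostly Flii in EV.

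Of the 9 members, 8 had enough counts to be tested with edgeR's quasi-likelihood method, of which 3 were called higher (Gsn, Scin and Svil), 2 lower (Add2 and Flii) and 3 not called. Among all 11444 tested genes 38.8% were called, 19.3% higher and 19.4% lower, and DESeq2 called 25.5%. In 7 of the 8 the R882H and EV libraries did not overlap, against 69.1% of tested genes. Changes of at least 8-fold were called for 2.81% of tested genes, and for Add2, Scin, Gsn and Svil among the members. The median log2 fold change of the 8 was 0.27, beside 0.01 over all tested genes. Because the members were picked with this contrast in view, nothing about the families can be read from these counts.

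**Figure D3:**
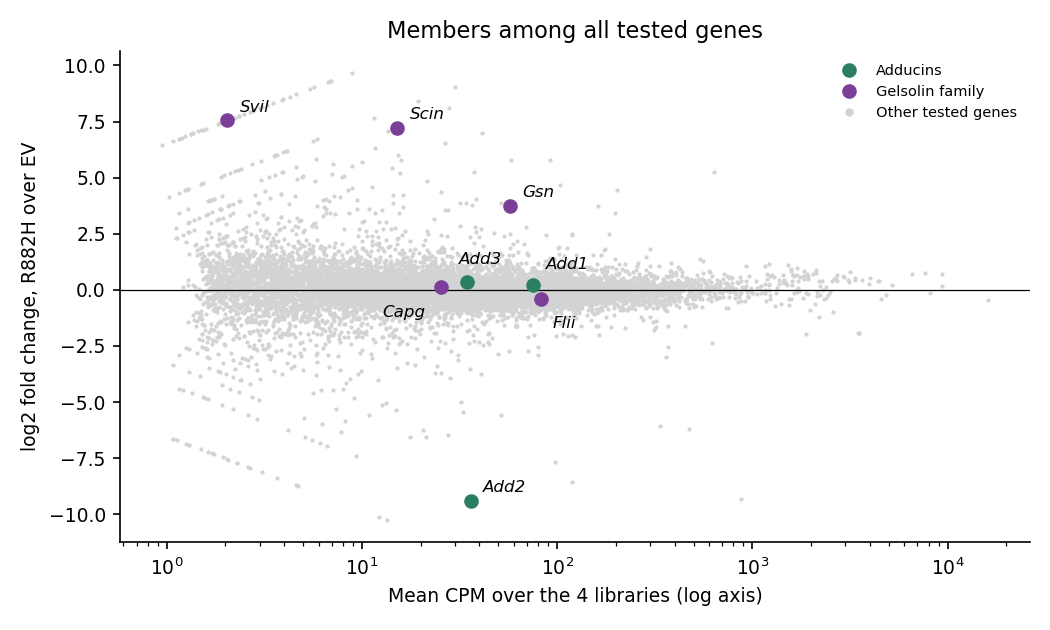
Log2 fold change (R882H over EV) against mean CPM on a log axis for all 11444 tested genes in grey, with the adducins in green and the gelsolin family in purple. Add2 lies at −9.39, Scin at 7.22 and Gsn at 3.75, with ranks of 4, 57 and 232 by absolute log2 fold change among the tested genes. Add1, Add3, Capg and Flii lie within the main cloud. Svil, fitted against 0 counts in EV, lies on the upper diagonal that such genes form.

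The genes whose levels over the 4 libraries were closest to a member were found by the root mean square distance of log2 CPM among 10209 other tested genes with an established symbol. With 4 libraries in 2 groups this likeness reflects mainly the level and the size of the difference. Closest to Scin was the basophil protease gene Prss34 (distance 0.353; 241 and 211 counts in R882H, 1 and 0 in EV). Closest to Gsn were Postn, which encodes the matrix protein periostin (0.353; 639 and 487 counts in R882H, 39 and 33 in EV), the GDNF family receptor gene Gfra2 (0.401) and the G protein signalling regulator gene Rgs8 (0.578). For Add2 the nearest were the BMP receptor gene Bmpr1a (0.882; 2 and 3 counts in R882H, 230 and 238 in EV), Lcn2 (0.886) and the VEGF receptor gene Flt1 (0.918), each farther away than the neighbours named for Scin and Gsn. Svil lay close to 3 genes with no EV counts, Ttpa (0.123), Slc16a7 (0.158) and Tns1 (0.164), Tns1 encoding the focal adhesion protein tensin.

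Markers of other blood cells moved between the groups, and their part in the member differences was not tested. Scinderin and gelsolin are both known from megakaryocytes. The summed level of the 12 megakaryocyte and platelet markers was 60.2 to 66.8 CPM in R882H and 929.7 to 1106 CPM in EV, led by Itgb3 in R882H and by Pf4 in EV, with Tubb1 and Treml1 at 0 throughout. That sum follows Pf4. Of the 5 tested genes of the list, 3 were called lower in R882H (Pf4, Ppbp and Itgb3), 1 higher and 1 was not called. Ppbp had 5 and 0 counts in R882H and 108 and 130 in EV. The gene called higher was Itga2b (38 and 32 counts in R882H, 11 and 15 in EV, log2 fold change 1.35 ± 0.38, adjusted p = 0.00466 in edgeR). Gp9, not called, had 28 and 32 counts in R882H and 23 and 20 in EV. The 11 basophil and mast cell markers summed to 416 to 433 CPM in R882H and 100.1 to 102 CPM in EV, led by Cpa3 in R882H and by Gata2 in EV, with Fcer1a, Mcpt4, Tpsb2 and Cma1 at 0. Of its 5 tested genes 4 were called higher, and Gata2 was called lower (190 and 132 counts in R882H, 267 and 289 in EV). For the red-cell lineage, in which beta adducin is best known, the 12 measured markers summed to 241 to 271 CPM in R882H and 250 to 268 CPM in EV, nearly all Tfrc. The globin gene Hbb-bt had 44 and 41 counts in R882H and 61 and 47 in EV and Hbb-bs had 8 and 8 in R882H and 12 and 12 in EV, neither called, while Hba-a1, Epor, Slc4a1 and Ermap had no count in any library.

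The remaining marker lists were as follows. The 10 B lineage markers summed to 1722 to 1728 CPM in R882H and 662 to 670.4 CPM in EV, led by Igll1. The 12 neutrophil markers summed to 1887 to 1916 CPM in R882H and 1356 to 1508 CPM in EV, led by Ctsg, with Ltf, Camp, Ngp, S100a9, Retnlg and Mmp9 at 0. Monocyte and macrophage markers came to 156 to 171 CPM in R882H and 92.6 to 102 CPM in EV, with C1qa, C1qb, C1qc and Mrc1 among those at 0. Ccr2 led that list, and Adgre1 was called lower (23 and 22 counts in R882H, 77 and 83 in EV). T and NK cell markers reached 25.8 to 26.5 CPM in R882H and 10.1 to 12.5 CPM in EV, with Cd3e, Cd3g, Cd8a, Cd4, Ncr1 and Gzma at 0. Nkg7 was called higher and made up most of the R882H sum, and Lck was called lower (7 and 5 counts in R882H, 36 and 47 in EV). Fibroblast and endothelial markers reached 12.0 to 13.5 CPM in R882H and 6.53 to 6.97 CPM in EV, with 6 of 10, the collagens among them, at 0. Pecam1 was called higher there, and Acta2 had 0 and 0 counts in R882H and 17 and 8 in EV.

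The lists of related genes that follow are to be read beside all tested genes, of which 19.3% were called higher and 19.4% lower. Of 25 listed partners in the spectrin-based skeleton to which adducin binds, 12 had enough counts to be tested, of which 0 rose, 3 fell and 9 were not called, a median log2 fold change of −0.03. The 3 were Epb41, the protein 4.1 that joins spectrin to actin, with 45.4 ± 2.34 CPM in R882H and 67.9 ± 3.64 CPM in EV (log2 fold change −0.58 ± 0.14, edgeR adjusted p = 0.00107), the alpha spectrin gene Sptan1 (−0.37 ± 0.13, adjusted p = 0.0247) and the glucose transporter gene Slc2a1, whose product adducin can tether (−0.42 ± 0.16, adjusted p = 0.0294). Beta spectrin Sptbn1 had 170 ± 0.302 CPM in R882H and 185 ± 9.62 CPM in EV (−0.13 ± 0.13), and the tropomyosin gene Tpm3 302 ± 25.4 CPM in R882H and 298 ± 28.5 CPM in EV (0.02 ± 0.13, with the sign turning in 3 alternatives). Some genes known from the red-cell skeleton were at or near 0 (Epb42, Ank1, Dmtn and Slc4a1 had no count, and Sptb at most 2 in a library), and others were not: Tmod1 had 52.7 ± 0.453 CPM in R882H and 55.8 ± 3.03 CPM in EV, and Mpp1 and Gypc were also detected and not called. Exons of Sptb, Tmod1 and Mpp1 overlap those of Plekhg3, Tstd2 and Dkc1. Only Epb41 was called by DESeq2, and 1 gene of the list was called lower with R882H replicate 1 left out. The Sptan1 call ended on leaving out EV replicate 2 (adjusted p = 0.107), R882H replicate 1 (0.161) or R882H replicate 2 (0.189), and the Slc2a1 call on leaving out EV replicate 2 (0.264) or R882H replicate 1 (0.321). Without EV replicate 1, 2 genes of the list were called higher.

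Among other genes that cap, cut or bind actin monomers, 2 of 22 tested rose, 8 fell and 12 were not called, with 45.5% called and a median of −0.10. Genes of the heterodimeric capping protein, which also sits at fast-growing filament ends, were not called (Capza1, Capza2 and Capzb, edgeR adjusted p = 0.853, 0.0919 and 0.931). Carmil1, which encodes an inhibitor of capping protein, had 3 and 1 counts in R882H and 25 and 14 in EV (−3.28, edgeR adjusted p = 0.000132). The filament stabiliser gene Lima1 fell to 23.4 ± 0.298 CPM in R882H, against 136 ± 12.7 CPM in EV (−2.54 ± 0.15, edgeR adjusted p = 4.06e-16). The profilin gene Pfn1 had 39.3 ± 8.12 CPM in R882H and 79.7 ± 18.1 CPM in EV (−1.02 ± 0.16, adjusted p = 4.62e-06), and the coronin gene Coro1c fell with −0.81 ± 0.13. Thymosin genes, whose products hold actin monomers, went the other way: Tmsb4x had 2664 ± 305 CPM in R882H and 1564 ± 37.1 CPM in EV (0.77 ± 0.15, edgeR adjusted p = 7.68e-05), and Tmsb10 rose by less (0.48 ± 0.15, adjusted p = 0.0088). The cofilin gene Cfl1, another filament-cutting factor, had 1634 ± 285 CPM in R882H and 1772 ± 161 CPM in EV and was not called (−0.12 ± 0.15, and 0.06 without R882H replicate 1). Tmsb10 lost its call on leaving out EV replicate 2 (adjusted p = 0.0608) or R882H replicate 2 (0.196) and in DESeq2 (0.0635), so that 1 gene of the list was called higher in each, and exons of Coro1c, Cfl1 and Capza1 overlap those of Gm17122, Snx32 and St7l.

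Of 19 tested genes for actin and filament cross-linkers, 2 rose, 9 fell and 8 were not called, with 57.9% called and a median of −0.27. Beta actin, Actb, had 1746 ± 65.2 CPM in R882H and 3427 ± 378 CPM in EV (−0.97 ± 0.15, edgeR adjusted p = 2.62e-06), and Actg1 had 1995 ± 132 CPM in R882H and 2650 ± 261 CPM in EV (−0.41 ± 0.15, adjusted p = 0.026). The alpha-actinin gene Actn1 had 16 and 7 counts in R882H and 335 and 362 in EV (−4.98 ± 0.25, edgeR adjusted p = 6.24e-18). Evl, of the Ena/VASP family that protects growing filament ends from capping, had 79 and 52 counts in R882H and 1 and 0 in EV, a ratio of 125 with an interval of 22.0 to 4965; its exons overlap those of Degs2. The membrane linker gene Msn rose by a small amount (0.40 ± 0.14, adjusted p = 0.0182). Msn lost its call on leaving out EV replicate 1 (adjusted p = 0.109), R882H replicate 1 (0.0639) or R882H replicate 2 (0.183). Actg1 lost it on leaving out EV replicate 2 (0.0558), R882H replicate 1 (0.128) or R882H replicate 2 (0.305), and with the replicate block (0.059). With R882H replicate 2 left out 5 genes of the list were called lower, and leaving out either of the R882H libraries left 1 called higher.

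Of 19 tested filament nucleators and branching factors, 2 rose, 4 fell and 13 were not called, with 31.6% called and a median of 0.04. The formin gene Diaph2 had 4.03 ± 0.0153 CPM in R882H and 14.4 ± 3.55 CPM in EV (−1.84 ± 0.28, edgeR adjusted p = 2.25e-06) and Diaph1 fell less (−0.51 ± 0.13), while the formin Fmnl1 had 102 ± 1.03 CPM in R882H and 61.5 ± 6.35 CPM in EV (0.73 ± 0.13, adjusted p = 4.85e-05). Of the Arp2/3 complex, which starts branches, Arpc4 (−0.67 ± 0.14) and Arpc1b (−0.64 ± 0.17) fell and Arpc5 (0.40 ± 0.13) rose, and Arpc2 was not called (−0.30 ± 0.13, edgeR adjusted p = 0.074; called without EV replicate 2, 0.0427). On leaving out R882H replicate 1, the calls of Arpc4 (adjusted p = 0.0879), Diaph1 (0.0508), Arpc1b (0.205) and Arpc5 (0.187) ended. Diaph1 (0.0636) and Arpc5 (0.0553) were also not called with R882H replicate 2 left out, Arpc5 (0.0585) with EV replicate 2 left out, and Arpc1b (0.0794) with EV replicate 1 left out or in DESeq2 (0.139). With EV replicate 2 or either R882H library left out, 1 gene was called higher, and 2 were called lower with R882H replicate 1 left out. Exons of Arpc4 and Arpc1b overlap those of Ttll3 and Pdap1.

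Of 18 tested kinases and partners of adducin and Flightless I, 3 rose, 8 fell and 7 were not called, with 61.1% called and a median of −0.13. Adducin is a substrate of protein kinase C and of the kinase Rock1: the kinase C gene Prkca had 8.04 ± 0.939 CPM in R882H and 20.3 ± 0.469 CPM in EV (−1.33 ± 0.22, edgeR adjusted p = 7.18e-06), whereas Prkce had 21.6 ± 6.42 CPM in R882H and 8.54 ± 0.151 CPM in EV (1.34 ± 0.23, adjusted p = 1.41e-05). Rock1 fell (−0.46 ± 0.13, edgeR adjusted p = 0.00537). Of the protein kinase A subunit genes, Prkacb rose (0.57 ± 0.14, edgeR adjusted p = 0.00212) and Prkaca fell (−0.41 ± 0.15, edgeR adjusted p = 0.0251). Fyn, a kinase that phosphorylates beta adducin, had 60 and 46 counts in R882H and 24 and 25 in EV (log2 fold change 1.04). The partners of Flightless I, Lrrfip1 and Lrrfip2, fell (−0.43 and −0.52, edgeR adjusted p = 0.0123 and 0.0147). Calmodulin, which binds adducin, was near level, with 720.0 ± 93.1 CPM in R882H and 720.1 ± 40.8 CPM in EV for Calm3. Most of the smaller falls in this list depended on the tool and on single libraries: 2 genes were called lower by DESeq2, 4 with EV replicate 2 left out, 3 with R882H replicate 1 left out and 1 with R882H replicate 2 left out. Rock1 lost its call on leaving out R882H replicate 1 (adjusted p = 0.0589) or R882H replicate 2 (0.119).

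**Figure D4:**
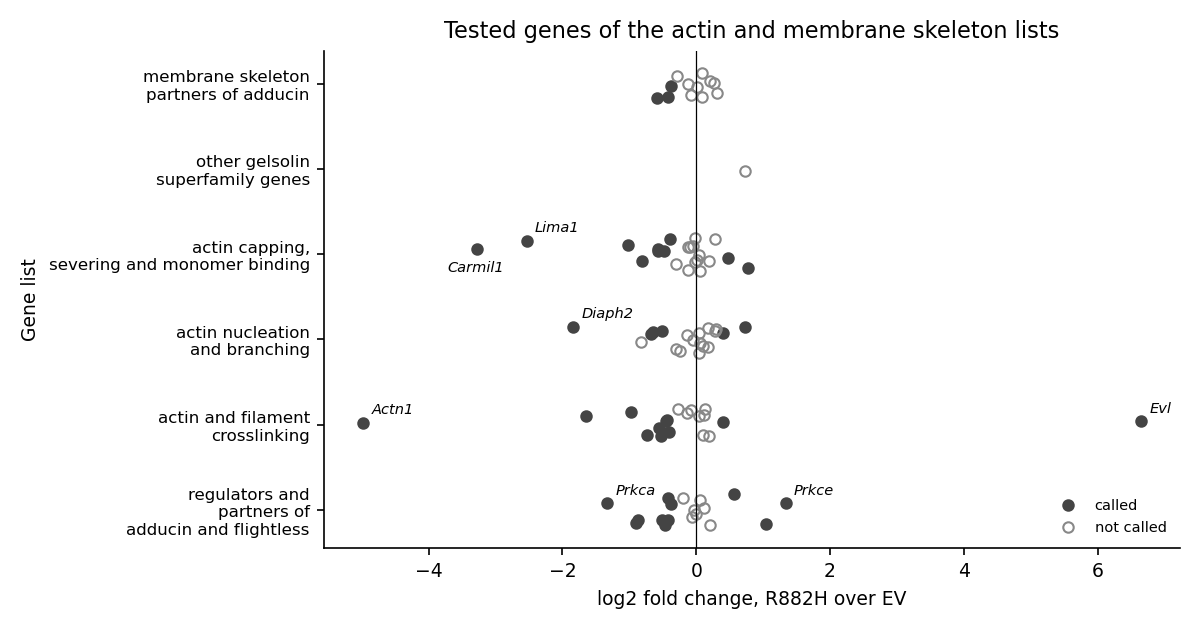
Log2 fold change (R882H over EV) of each tested gene in the 6 lists of actin and membrane skeleton genes; filled points passed the edgeR threshold and open points did not, and vertical scatter within a list is for display. Most points lie near 0, with Actn1 (−4.98), Carmil1 (−3.28) and Lima1 (−2.54) far to the left and Evl far to the right, fitted against 1 count in EV.

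The start regions of 8 members, in 12 windows, were taken from the RefSeq table. Chromosome 18, which holds Svil, was left out when the members' windows were taken, so Svil has none here. CpG counts of the shown windows were in the middle of the range or above it: 58.6% of all windows held fewer CpG than the Add2 window and 67.0% fewer than the Scin window. Of the members with near-level transcripts, Add1 had 20 CpG, the 3 starts of Add3 had 5, 20 and 1, and Capg had 7, while Flii had 26 and the silent Avil 2. The letters GGGCGG, which overlap a CpG, occur on either strand 1 time in the Add2 window, 2 times in the Scin window, and 3 and 2 times in the Gsn windows shown, and in 35.7% of all windows. CCAAT, searched on both strands, was found 3 times in the window of Gsn start 3 and in neither the Add2 nor the Scin window (37.4% of all windows hold it). GATAA and TATAAA, on both strands, were found in none of the 4 windows shown, and are held by 25.4% and 13.6% of all windows. These are matches of letters only, and no binding was measured.

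**Figure D5:**
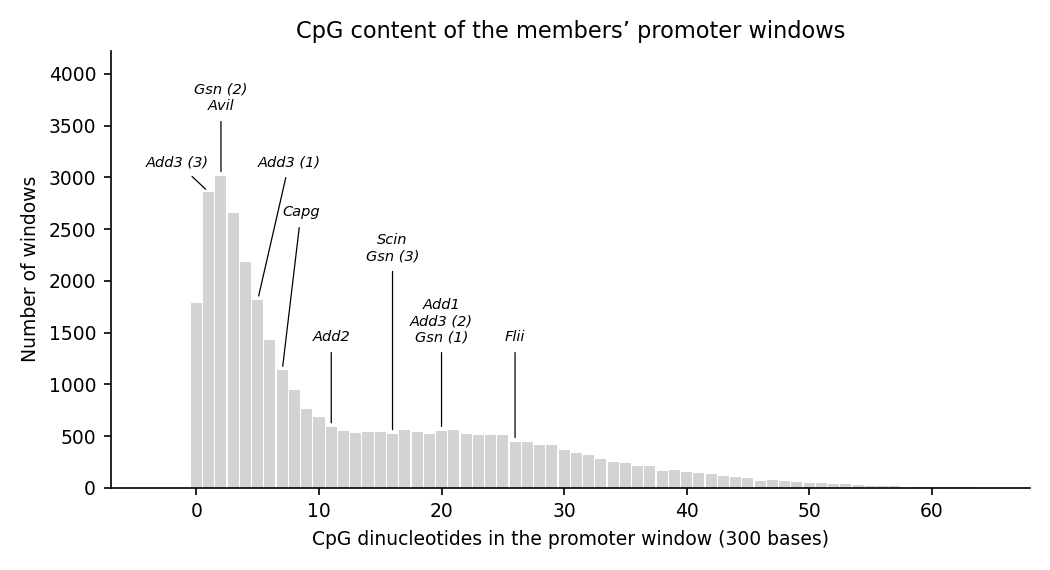
Number of promoter windows (vertical axis) by their count of CpG in 300 bases (horizontal axis) for all 32851 RefSeq windows, with the members' windows marked by name and, for genes with several starts, by the number of the start. Svil is not marked, because its chromosome was left out when the members' windows were taken. Add2 (11 CpG), Scin (16) and Gsn starts 1 and 3 (20 and 16) lie above the median of 7, as do Add1, Add3 start 2 and Flii. Capg lies at the median, and Gsn start 2, Add3 starts 1 and 3 and Avil lie below it.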

How the data were processed

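The authors deposited raw counts per Ensembl gene for the 4 libraries, per the labels' column titles. The build is mm10 and the tools include HISAT2 2.0.4 and Subread 2.0.0 with featureCounts, per the submitters' processing notes. The annotation, strand setting and handling of multiply mapped reads are not given in sources used here. Positions are 1-based from GENCODE M21, and 52403 IDs had a symbol. For members and genes of the pathway lists, exon overlap with a gene of at least 10 counts is named as uncertain. Over the last 400 bases of the members' transcripts, no run of 75 bases was shared with another gene's transcripts except 2.82% for Add2, with Gm44089.

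Here edgeR 4.0.16 in R 4.3.3 was fitted to all genes (filterByExpr, TMM, robust quasi-likelihood fit, Benjamini-Hochberg adjustment, threshold 0.05). The code was run on simulated counts with a shared dispersion for all genes and few changed genes. Because these data differ in both, that run does not give the error rate of the calls here. CPM use TMM-scaled library sizes. Fold changes set R882H over EV; a standard error is the absolute log2 value over the root of F, left out where a group held 3 counts or fewer. Ratios use summed counts with an exact conditional 95% interval, and shares an exact Clopper-Pearson interval. Members, gene lists and naming rules were chosen with earlier results of these data known. From each list the text names up to 4 called genes with the smallest p, up to 2 called against the majority (every called gene where 5 or fewer were), and the 2 with the most counts. Capping protein subunits, Carmil1, Fyn, Lrrfip1, Lrrfip2, Prkaca, Tmod1, Mpp1, Gypc, several markers and overlapping neighbours were added after their values were seen. Some genes the rule names are not reported here. Replicates differed beyond counting noise (chi-square per degree of freedom 4.61 in R882H and 6.91 in EV). Alternatives were DESeq2 1.42.0, DESeq2 size factors, library size only, other count filters, robust=FALSE, a replicate block, no overlapping genes, and each library left out.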

Additional observations from a re-analysis of the deposited data

How the results depend on the processing

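Of 94 alternative fits of the 8 tested members, 89 kept direction and call. The other 5 were the Capg sign without EV replicate 2 (−0.0263, with 0.241 as the upper end over left-out libraries) and 4 lost calls of Flii. For Flii the log2 fold change was −0.426 in DESeq2. Over all left-out libraries it ran from −0.594 to −0.228, a range that includes the fit without EV replicate 1, in which the call held. Higher calls among members were 3 under every alternative run. Lower calls were 1 in DESeq2, 1 to 2 over left-out libraries, and 0 without genes whose exons overlap another gene, a fit that drops Add2 and Flii. Over all genes, DESeq2 called 1401 higher (2213 as reported), and leaving out a library gave 1508 to 2065 higher and 1446 to 2168 lower (2222 as reported), fewest without R882H replicate 1.

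In the lists, DESeq2 called 1 partner of adducin lower, 1 capping or monomer-binding gene higher and 2 regulators lower. Without overlapping genes, calls were 5 lower in capping and monomer binding, 2 lower in nucleation and 1 higher in cross-linking. Over left-out libraries, higher calls were 0 to 2 for partners of adducin, 0 to 1 for Vil1 and Vill, 1 to 3 for capping, 1 to 3 for nucleation and 1 to 2 for cross-linking. Lower calls were 1 to 3 for partners of adducin, 2 to 5 for nucleation, 5 to 9 for cross-linking and 1 to 6 for regulators. Signs turned for Tpm3 (−0.0006 with library size only, −0.0806 without EV replicate 1, −0.054 without R882H replicate 2, up to 0.116 without R882H replicate 1), Cfl1 (0.0626 without R882H replicate 1, down to −0.293 without R882H replicate 2) and Calm3 (0.0041 without a low-count filter, 0.0538 without EV replicate 1, 0.138 without R882H replicate 1, down to −0.124 without R882H replicate 2). For these the cause was not tested.

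Samples share only a replicate number (correlation of their deviations −0.00261). With the replicate block 2196 genes were called higher and 2229 lower, and all member calls stayed. Depth limits Svil, Scin and Add2, whose low groups held 0 to 2 counts.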
